A study of Mus musculus with 16 samples.

Results

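The ligands that start and shape new blood and lymphatic vessels, together with the neuropilins that help present them, were described in 16 tumors of a mouse model of metastatic lung adenocarcinoma. The members were Vegfa, Vegfb, Vegfc, Vegfd (older symbol Figf), Pgf, Angpt1, Angpt2, Nrp1 and Nrp2, and every probe set annotated to 1 of these 9 symbols alone was taken. They are 9 of the 12393 genes with a probe set of their own, and they gave 14 of the 22626 probe sets tested, with 3 each for Nrp1 and Vegfd, 2 for Vegfa and 1 for each of the other genes. Values are linear model-based intensities in arbitrary units. They depend on the probes as well as on the RNA, so levels were compared between tumors and not between genes.

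All tumors came from p53R172H∆g/+ K-rasLA1/+ mice, which carry a mutant p53 allele and a latent oncogenic K-ras allele that recombines sporadically in somatic cells. There were 7 primary lung adenocarcinomas, 1 from each of mice 1 to 7, and 9 metastases from mice 1 to 4, with 1 array per tumor. Mouse 1 gave a liver, a body wall and an inguinal body wall metastasis, mouse 2 a liver metastasis, mouse 3 a heart, a mediastinal lymph node and a body wall metastasis, and mouse 4 a mediastinal lymph node and a parietal pleura metastasis. Mouse 6 was female and the others were male. No wild-type or normal lung tissue was among the arrays. On the first of all probe sets in the table, and on no other, the values rise in the order of the columns within both groups, so the labels were checked against markers. Xist was at 987 in the primary tumor of the female mouse 6 and at most 205 elsewhere, the Y-linked Eif2s3y was at 4.66 there and at least 80.3 elsewhere, and the heart muscle gene Nppa was at 2161 in the heart metastasis and at most 35.9 elsewhere. The liver gene Alb was at 3234 and 1285 in the liver metastases of mice 1 and 2. It was also at 2761 and 1158 in the inguinal and body wall metastases of mouse 1, so it did not mark the liver alone. These markers cannot tell the male mice apart, and matched and per-mouse values rest on the labels for that. Each tumor was bulk tissue dissected away from its surroundings, so fewer cells of a type and less RNA per cell cannot be told apart.

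Vegfa is the main inducer of endothelial growth and permeability and acts through the receptors Kdr and Flt1, while Vegfb and Pgf bind Flt1. Vegfc and Vegfd act on Flt4 and are best known for lymphatic growth. Angpt1 activates the receptor Tek and steadies vessels, and Angpt2 often opposes it. Nrp1 and Nrp2 are co-receptors of the VEGF ligands and of class 3 semaphorins, and are made by tumor cells and neurons as well as by endothelium.

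The question was whether these genes differed between the metastases and the primary tumors, and no member passed the test in either direction. In the comparison of the 9 metastases with the 4 primary tumors of the same mice (limma, mouse as a block), 0 of the 14 member probe sets passed an adjusted p of 0.05, where 0.354% of all probe sets did. None had an unadjusted p under 0.01 (3.98% of all probe sets) or under 0.05 (11.4%). With 1 mouse or 1 metastasis left out, 1 Nrp1 probe set at most came under 0.05: 1448943_at without mouse 4 (−0.68, limma adjusted p = 0.53) or without its lymph node metastasis alone (−0.58, adjusted p = 0.473), and 1418084_at without mouse 3 (−0.70, adjusted p = 0.433). No member was higher than its matched primary tumor in 9 of 9 metastases (1.81% of all probe sets) or lower in 9 of 9 (3.6%). For no member did the 9 metastases and the 7 primary tumors fall into separate ranges, as they did for 0.376% of all probe sets. What varied was the level within each group. On the brightest probe set of each gene the highest and lowest of the 16 tumors differed 7.66-fold for Nrp1 and 6.64-fold for Vegfa. For Nrp2 they differed 1.5-fold, and on the other Vegfa probe set, 1451959_a_at, only 1.57-fold.

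**Figure D1:**
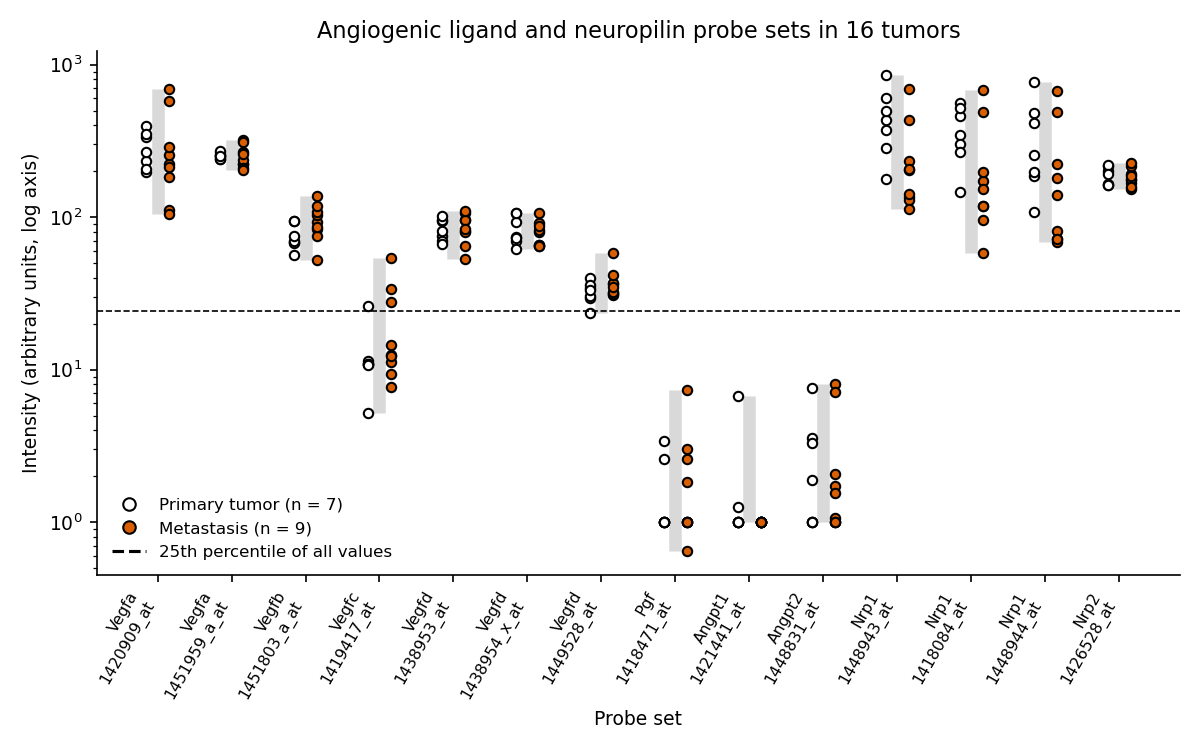
Intensity (arbitrary units, log axis) of the 14 member probe sets, with 1 open point for each of the 7 primary tumors, 1 filled point for each of the 9 metastases, a grey bar for the whole range and a dashed line at the 25th percentile of all values (24.3). The metastases overlap the primary tumors on every probe set, and Pgf, Angpt1 and Angpt2 lie wholly under the line.

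On its brighter probe set (1420909_at) Vegfa was the most variable ligand above the dim range, while its other probe set varied only 1.57-fold. On 1420909_at the primary tumors lay between 199 (mouse 7) and 394 (mouse 2), with a median of 267. The metastases lay between 104 and 693, with a median of 222. The liver metastasis of mouse 1 stood at 693 and the inguinal body wall metastasis of the same mouse at 577, against 353 in their primary tumor. The other body wall metastasis of that mouse was at 257. These 2 high tumors were above every primary tumor, whereas the 257 was near the median of the primary tumors.

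The lowest Vegfa value was in the other liver metastasis, at 104 in mouse 2, whose primary tumor at 394 was the highest of the 7. The lymph node metastasis of mouse 3 was also low, at 111 against 207 in its primary tumor. The heart (212) and body wall (184) metastases of mouse 3 were close to that primary tumor. In mouse 4 the lymph node (222) and pleural (290) metastases lay on either side of the primary tumor at 267. The liver thus held both the highest and the lowest Vegfa level of the series.

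The per-mouse mean log2 ratios of metastasis to primary tumor were 0.41, −1.91, −0.35 and −0.07 in mice 1 to 4. The fitted difference was −0.36 (SE 0.365, 95% interval −1.17 to 0.45, adjusted p = 0.777 in limma), with 4 metastases higher and 5 lower. With an interval this wide, a moderate change in either direction was not detectable with 4 mice. The other probe set (1451959_a_at) had a much narrower range, 204 to 321, and a correlation of 0.676 with the first over the 16 tumors. It also placed the liver (321) and inguinal (310) metastases of mouse 1 at the top and the liver metastasis of mouse 2 at the bottom. The lymph node metastasis of mouse 3 was not low on it, at 237 against 250 in the primary tumor. For 2 metastases the log2 ratio differed in sign between 1420909_at and 1451959_a_at. These were the pleural one (0.12 and −0.18) and the body wall one of mouse 3 (−0.17 and 0.09). The fitted difference on 1451959_a_at was −0.06 (adjusted p = 0.891 in limma).

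Vegfa is also a classical target of the hypoxia-inducible factors, and the hypoxia response list gave the tumors in part the same order. Of its 22 genes 19 were measured, of which 10 were higher and 9 lower in the metastases, with a median log2 difference of 0.01 beside −0.02 over all probe sets. None passed the adjusted threshold and none had an unadjusted p under 0.01. Taken as a mean over its genes of log2 intensity minus the 16-tumor average, the list was highest in the liver (1.1) and inguinal (0.58) metastases of mouse 1, the same 2 tumors as for Vegfa. It was low, at −0.58, in the liver metastasis of mouse 2, which had the lowest Vegfa. The order broke in mouse 3, whose body wall metastasis came next in the list (0.47) with a Vegfa of only 184, and in the pleural metastasis of mouse 4, which had the lowest list mean (−0.66) with a Vegfa of 290. The tumors differ in cell content and site as well, and the part of the hypoxia response in the Vegfa levels was not tested.

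**Figure D2:**
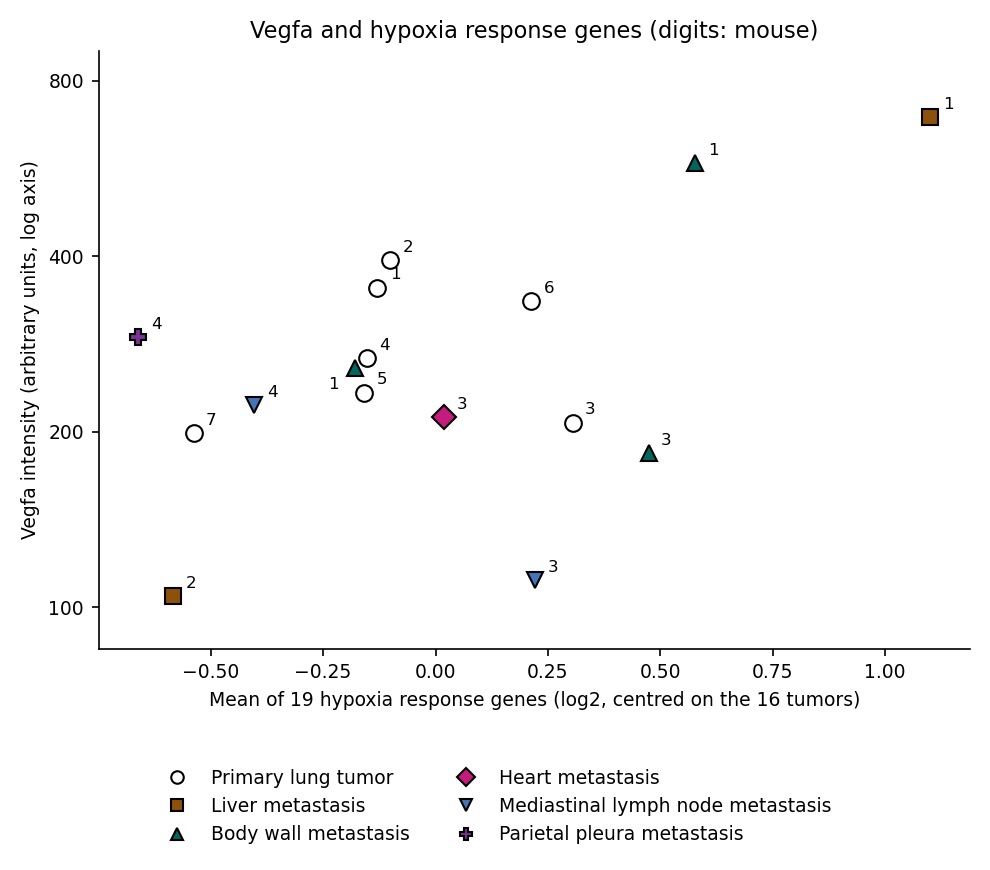
Vegfa intensity (1420909_at, arbitrary units, log axis) against the mean centred log2 value of 19 hypoxia response genes in each of the 16 tumors, with digits giving the mouse. The liver and inguinal body wall metastases of mouse 1 are highest on both axes. The body wall and lymph node metastases of mouse 3 lie to the right with low Vegfa on this probe set.

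The promoter of Vegfa is shown because on its brighter probe set it is the ligand with the widest range above the dim values. RefSeq windows of 250 bases upstream of annotated starts (GRCm38.p6) were found for 7 of the 9 members, 9 windows in all. They were searched on both strands for the core of the hypoxia response element (ACGTG or GCGTG) and for the GC box GGGCGG that Sp1-type factors bind. The hypoxia core was in 5 of the 9 windows, against 38.6% of all 32851 windows, and the GC box was in 7 of the 9, against 32.7%. Vegfa and Pgf gave 2 windows each. The GC content of the 9 windows ran from 42.4% to 76.4%, and shares over windows of like GC content were not computed. The upstream Vegfa window, chr17:46032378-46032627 on the minus strand, held 2 GC boxes, in capitals here, and no hypoxia core.

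Vegfa promoter: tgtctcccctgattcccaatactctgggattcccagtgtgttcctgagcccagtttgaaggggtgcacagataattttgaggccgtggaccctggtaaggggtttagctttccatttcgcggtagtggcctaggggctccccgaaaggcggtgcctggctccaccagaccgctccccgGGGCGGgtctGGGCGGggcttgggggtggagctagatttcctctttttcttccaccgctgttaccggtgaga

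A second Vegfa window, at an internal start, held 2 hypoxia cores and 1 GC box. The Vegfb and Nrp2 windows held 2 hypoxia cores each, those of Nrp1 and the upstream start of Pgf held 1 each, and those of Vegfc and Vegfd held none. These are matches of letters in short windows and say nothing of binding in these tumors.

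Vegfb, a survival factor for vessels and heart muscle, was above the matched primary tumor in most metastases. On 1451803_a_at the primary tumors lay between 56.7 and 94.8 with a median of 70.1, and the metastases between 52.1 and 139 with a median of 92.6. The 2 liver metastases had 139 (mouse 1) and 108 (mouse 2), and the heart metastasis had 119. These tumors and the body wall metastasis of mouse 3 (104) were above all primary tumors, and the body wall metastasis of mouse 1 (52.1) was below them all. Vegfb was higher in 7 of 9 metastases and in each per-mouse mean (log2 ratios 0.18, 0.66, 0.14 and 0.17 in mice 1 to 4), but the fitted difference of 0.26 (SE 0.223, 95% interval −0.24 to 0.76) did not pass in limma (adjusted p = 0.728). Host tissue markers were high in some of the same tumors. The summed level of 5 hepatocyte markers was 7839 and 5114 in the liver metastases and 263 to 1066 in the primary tumors, but it was also 7518 and 5867 in the inguinal and body wall metastases of mouse 1, where Vegfb was 86.1 and 52.1. The sum of 5 cardiac muscle markers was 4527 in the heart metastasis and 115 to 214 in all other tumors. The part of these tissues in the Vegfb levels was not tested.

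The lymphatic ligands differed from each other in their pattern. Vegfc (1419417_at) was dim, with 12 of 16 tumors under 24.3, the 25th percentile of all values. The tumors of mouse 3 held the 4 values above it: 54.0 in the lymph node, 33.7 in the body wall, 28.0 in the heart and 26.1 in the primary tumor. All other tumors lay between 5.16 and 14.5. On how many of all probe sets the tumors of 1 mouse stood apart in this way was not counted. The matched difference was 0.17 (SE 0.217, adjusted p = 0.831 in limma).

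Vegfd varied little and its probe sets did not rank the tumors alike. On the brightest, 1438953_at, the primary tumors lay between 66.8 and 101.3 with a median of 81.5 and the metastases between 52.9 and 109 with a median of 83.3. The lowest value was in the liver metastasis of mouse 2 (52.9) and the highest in the inguinal metastasis of mouse 1 (109). The fitted difference was 0.02 (95% interval −0.32 to 0.36, adjusted p = 0.980 in limma), and its sign turned to −0.01 with 1 mean ratio per mouse. The second probe set, 1438954_x_at, had a correlation of 0.749 with the first over the 16 tumors, but the third, 1449528_at, had correlations of 0.0015 and −0.225 with the other two. The third placed the lymph node metastasis of mouse 3 highest, at 58.3 where all other tumors lay between 23.5 and 41.5.

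Pgf, Angpt1 and Angpt2 were under the 25th percentile in all 16 tumors. Pgf (1418471_at) reached at most 7.31. Angpt2 (1448831_at) lay between 1 and 8.03. Angpt1 (1421441_at) was at the floor of 1 in 14 tumors, at 1.26 in the primary tumor of mouse 1 and at 6.73 in that of mouse 6. Their levels on these probe sets give no order of the tumors, and low values do not show that the genes were silent.

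Nrp1, the co-receptor that binds Vegfa and the class 3 semaphorins, had the largest difference among the members that were not dim, and the metastases of 1 mouse were often alike. Its 3 probe sets had correlations of 0.955 to 0.965 over the 16 tumors. On 1448943_at the primary tumors lay between 179 (mouse 3) and 861 (mouse 7), with a median of 434. The metastases lay between 112 (heart, mouse 3) and 688 (lymph node, mouse 4), with a median of 205.

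In mouse 1 the liver, body wall and inguinal metastases had 129, 135 and 141, against 285 in the primary tumor. In mouse 2 the liver metastasis had 208 against 434. All 4 of these metastases were at less than the level of their own primary tumor by about 1 log2 unit (ratios of −1.14, −1.07, −1.01 and −1.06). In mouse 3 the lymph node (205) and body wall (232) metastases were above the primary tumor at 179 and the heart metastasis (112) was below it. In mouse 4 the lymph node metastasis had 688 and the pleural one 435, against 496.

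The per-mouse mean log2 ratios were therefore −1.08, −1.06, −0.03 and 0.14. The fitted difference was −0.48 (SE 0.263, 95% interval −1.06 to 0.11, adjusted p = 0.555 in limma) on this probe set, −0.57 (adjusted p = 0.591) on 1418084_at and −0.24 (adjusted p = 0.855) on 1448944_at. On 1418084_at the lymph node metastasis of mouse 4 had 683, and the lowest metastasis, in the heart, had 57.9. On 1448944_at the lymph node metastasis again led the metastases, at 675, and the inguinal metastasis of mouse 1 was lowest, at 68.6.

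**Figure D3:**
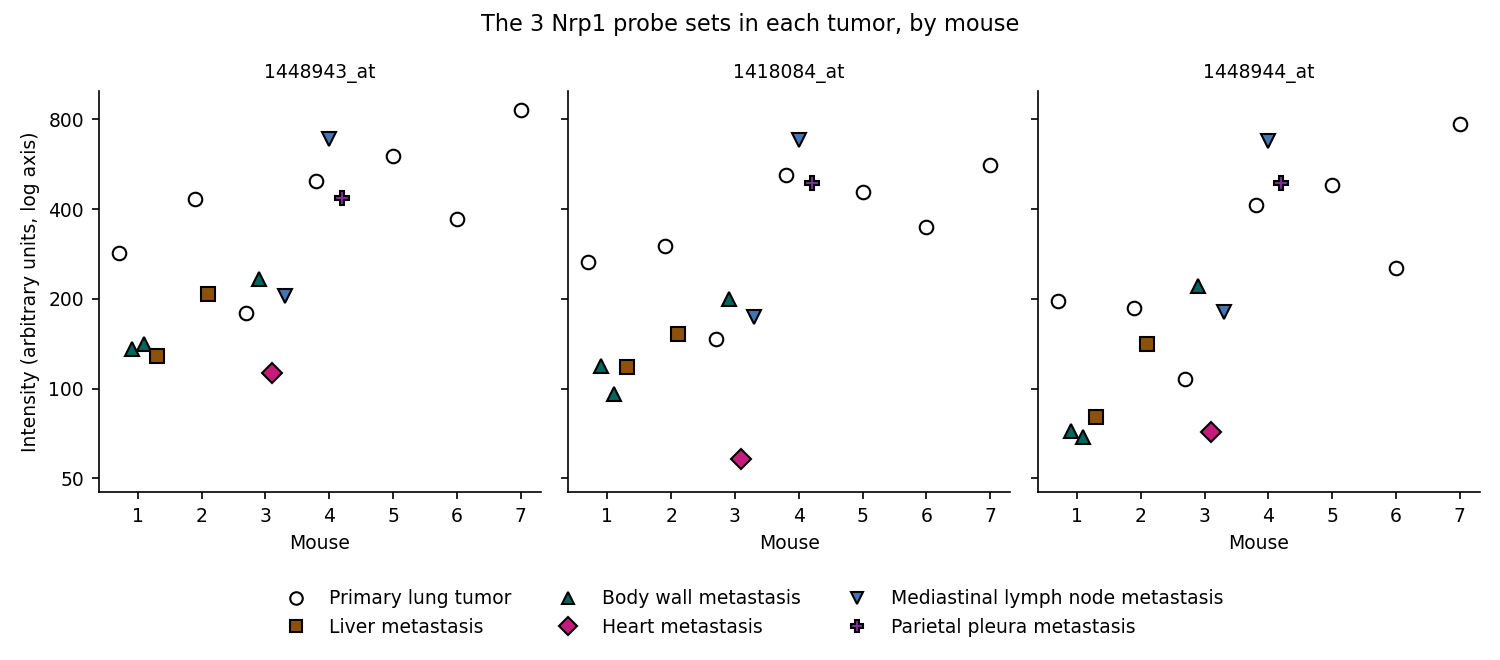
Nrp1 intensity on its 3 probe sets (arbitrary units, log axis) in each of the 16 tumors, set out by mouse with metastases marked by site. The 3 probe sets move together, and the metastases of mouse 1 lie below all primary tumors, while those of mouse 4 are the 2 highest metastases on each.

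Nrp2, which prefers Vegfc and the lymphatic side of the pathway, had the narrowest fold range of the members, 1.5-fold. On 1426528_at the primary tumors lay between 162 and 219 with a median of 191, and the metastases between 152 and 228 with a median of 177. The lowest tumor was the inguinal metastasis of mouse 1 and the highest the body wall metastasis of mouse 3. Nrp2 was lower in 7 of 9 metastases, with a fitted difference of −0.11 (SE 0.131, 95% interval −0.41 to 0.18, adjusted p = 0.807 in limma). The interval leaves out a halving or doubling of the matched level.

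Adding the primary tumors of mice 5 to 7, which had no matched metastasis, did not bring any member past the adjusted threshold (limma, mouse as a random block, 0 of 14 against 1.24% of all probe sets). At an unadjusted p under 0.05 there were 2 of 14, both of Nrp1, against 12.4% of all probe sets. These were 1448943_at, with a difference of −0.82 (SE 0.33, adjusted p = 0.299), and 1418084_at, with −0.85 (adjusted p = 0.372). Without the primary tumor of mouse 7 neither was left at that level. For Vegfa the difference was −0.23 (adjusted p = 0.831), for Vegfb 0.29 (adjusted p = 0.538) and for Nrp2 −0.06 (adjusted p = 0.887).

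**Figure D4:**
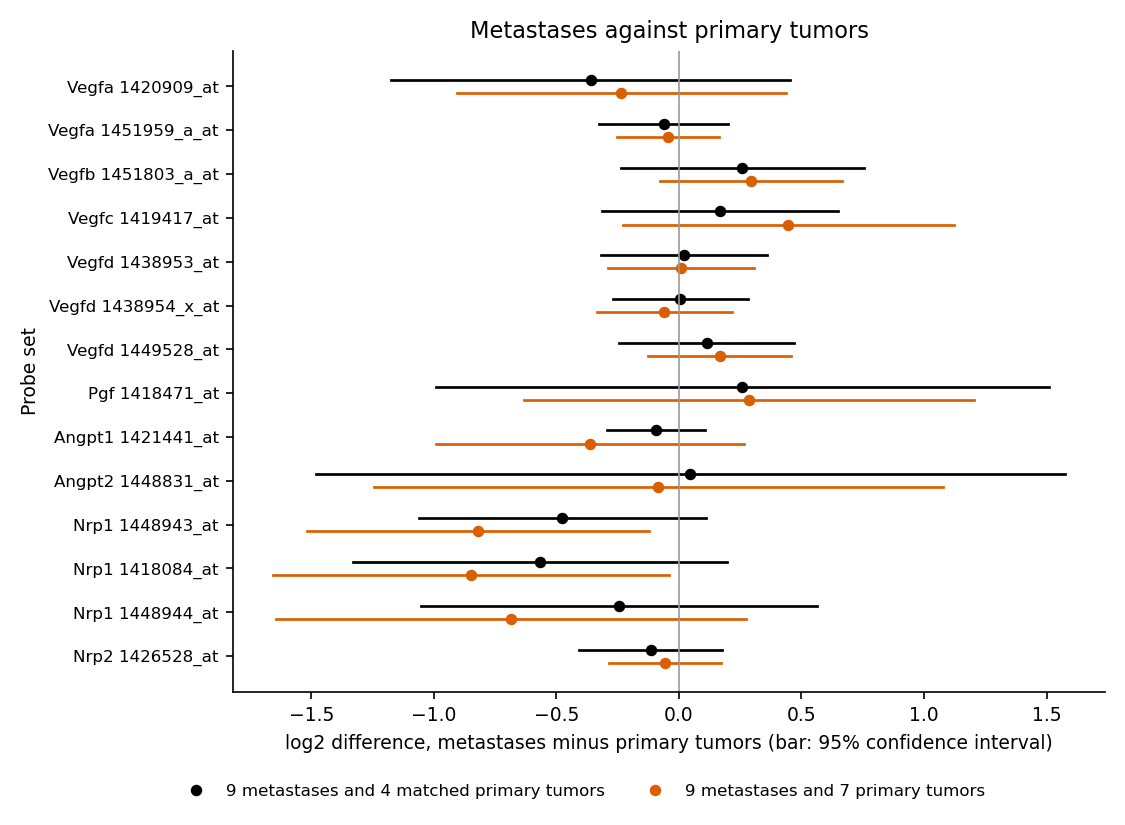
Difference in log2 intensity (metastases minus primary tumors, limma) for each of the 14 member probe sets, as points with 95% confidence intervals, for the 4 matched primary tumors (black) and for all 7 (orange). Every black interval includes 0, and among the orange ones those of the Nrp1 probe sets 1448943_at and 1418084_at lie below 0.

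The unmatched primary tumors were also compared with the matched ones. Nrp1 stood at 603 (mouse 5), 370 (mouse 6) and 861 (mouse 7) against 285, 434, 179 and 496 in those of mice 1 to 4. The means were 611 ± 246 (SD, n = 3) and 348 ± 144 (SD, n = 4), and the groups overlapped. The log2 difference was 0.83 (adjusted p = 0.334 in limma). None of the 14 member probe sets passed the adjusted threshold (1.02% of all probe sets) or had an unadjusted p under 0.05 (20.6%). Vegfa had means of 256 ± 70.4 and 305 ± 83.9 in these groups.

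The next question was whether the site of a metastasis set its level. Liver (2 tumors), body wall (3) and mediastinal lymph node (2) were compared with limma's F test, and 0 of 14 member probe sets passed an adjusted p of 0.05 (0.0398% of all probe sets) or an unadjusted p of 0.05 (7.86%). For Nrp1 the site means ran from 447 in lymph node to 170 in body wall and 168 in liver (adjusted p = 0.662), with single values of 435 in pleura and 112 in heart. Body wall and liver did not differ beyond their spread, and the lymph node mean held 688 and 205 from different mice. For Vegfb the liver mean was 123, above 88.1 in lymph node and 80.7 in body wall (adjusted p = 0.688). For Vegfa the liver mean of 399 held 693 and 104, so it describes neither tumor.

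The metastases were also grouped by mouse, a comparison added after the values had been seen. Between mice 1, 3 and 4, which gave 8 metastases, 3 of 14 member probe sets passed an adjusted p of 0.05 in limma's F test, against 5.17% of all probe sets, and 6 of 14 had an unadjusted p under 0.05, against 23.9%. Of the 3, 2 were Nrp1 probe sets that measure the same transcript, and 1 was the dim Vegfc.

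For Nrp1 the metastases averaged 135 ± 6.20 in mouse 1 (SD, n = 3), 183 ± 62.9 in mouse 3 (n = 3) and 561 ± 179 in mouse 4 (n = 2). Mice 1 and 3 overlapped, and both values of mouse 4 were above all the others. The limma adjusted p was 0.0429 on 1448943_at, 0.0367 on 1448944_at and 0.072 on 1418084_at. In lymph node the level was 205 in mouse 3 and 688 in mouse 4, and in body wall 135 and 141 in mouse 1 and 232 in mouse 3. The primary tumors of mice 1 and 3 had the opposite order, at 285 and 179. The parts of mouse and site were not tested. The adjusted p of 1448943_at was 0.0684 with the floor at the 25th percentile. It lay between 0.0286 and 0.207 with 1 metastasis left out, and the call was lost without any of the 8 but the heart metastasis.

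For Vegfc the means were 11.0 ± 1.57, 38.6 ± 13.7 and 11.1 ± 4.76 in mice 1, 3 and 4 (adjusted p = 0.042 in limma). That call was lost with the floor at the 25th percentile (0.297) and without any 1 of the 8 metastases (0.0556 to 0.116). Vegfa averaged 509 ± 226, 169 ± 51.8 and 256 ± 48.2 in the same mice and did not pass (adjusted p = 0.152). The sites differ between the mice, so mouse and site cannot be told apart fully.

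**Figure D5:**
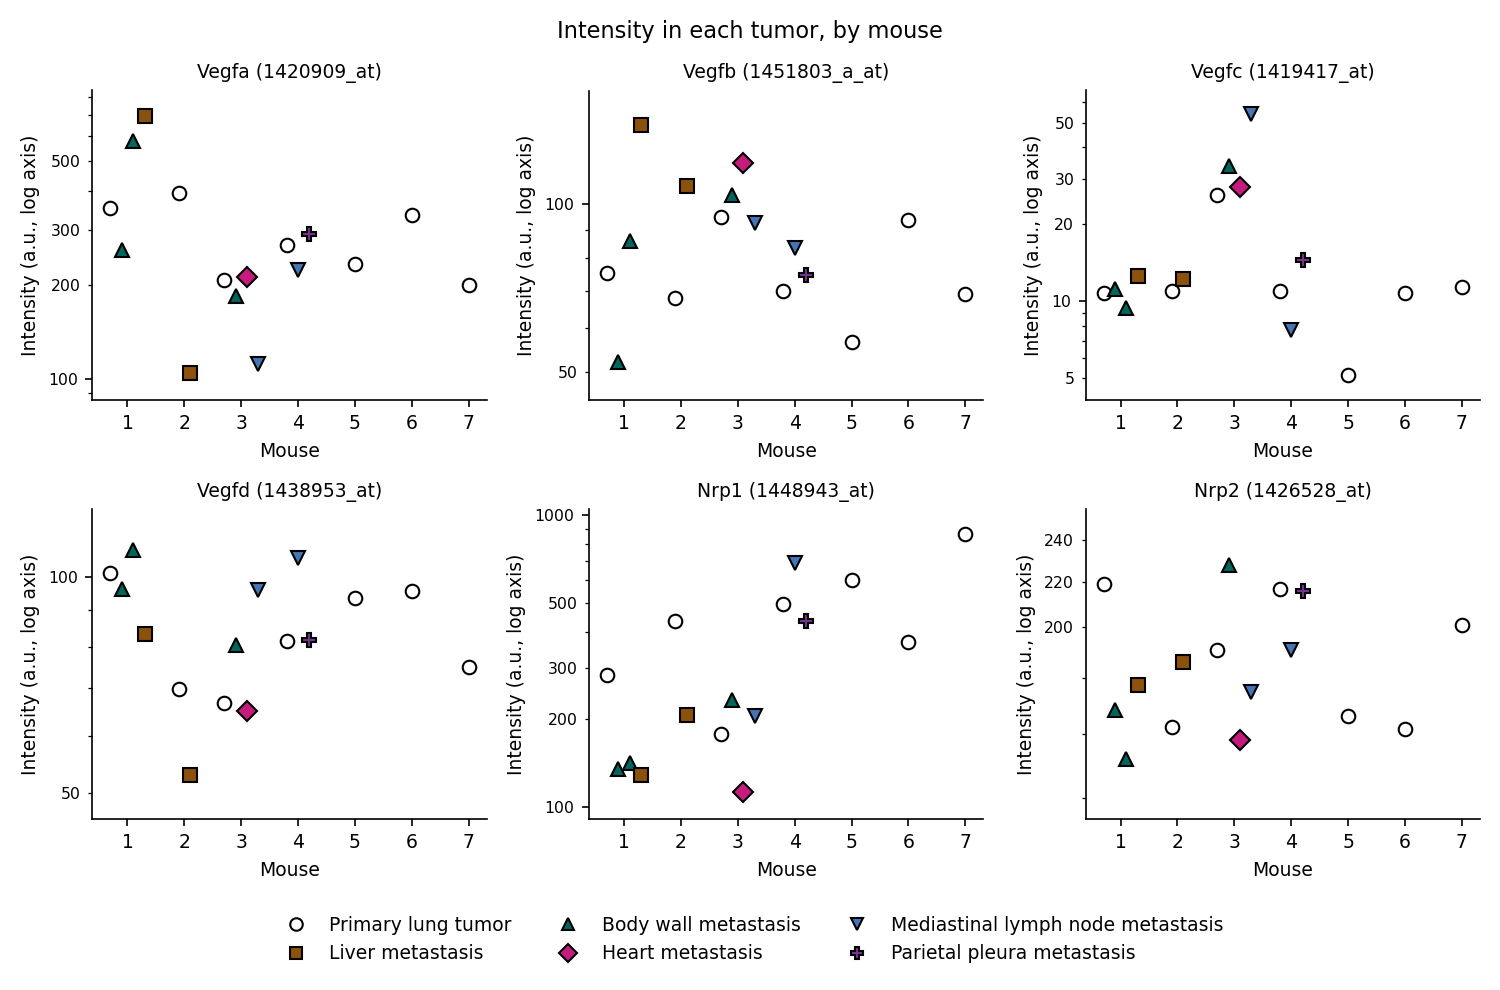
Intensity (arbitrary units, log axis) of Vegfa, Vegfb, Vegfc, Vegfd, Nrp1 and Nrp2 in each of the 16 tumors, set out by mouse (1 to 7) with metastases marked by site. Nrp1 is low in all metastases of mouse 1 and high in those of mouse 4, and the 4 tumors of mouse 3 are the highest for Vegfc.

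Markers of other cell types moved with Nrp1 in part. The summed level of 14 endothelial markers lay between 1744 and 2513 in the primary tumors and between 1456 and 2316 in the metastases, and 13 of the 14 were lower in the metastases, with a median log2 difference of −0.32. None of the 14 passed the adjusted threshold in the matched comparison. Vwf, an endothelial clotting factor, was the most changed of them, at 173 in the matched primary tumors and 16.8 in the metastases and lower in 9 of 9 (−4.61, adjusted p = 0.0716 in limma), and it passed with all primary tumors (−4.57, adjusted p = 0.00419). In mouse 1 the metastases summed to 1667, 1523 and 1510, in mouse 4 to 2121 and 2011. The mouse 3 lymph node metastasis had the highest sum of all metastases (2316) with an Nrp1 of only 205. The defining markers Pecam1 and Cdh5 were above the floor in every tumor, and Vwf was at or below 1.51 in the body wall and inguinal metastases of mouse 1. The sum of 7 measured markers of alveolar type 2 cells, the lung cells that these adenocarcinomas resemble, lay between 17620 and 45350 in the primary tumors. It was 25450 and 26770 in the metastases of mouse 4, 1025 to 2471 in those of mouse 3 and 8616 to 13480 in those of mouse 1. In the liver metastasis of mouse 2 it was 23390, near mouse 4, with an Nrp1 of only 208. All 7 markers were lower in the metastases in the matched comparison, with a median of −2.35. The part of these cells in the Nrp1 levels was not tested.

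No receptor of the members passed the test either. All 5 of Kdr, Flt1, Flt4, Tek and Tie1 had a fitted difference under 0 in the matched comparison, with a median log2 difference of −0.11, but none passed the adjusted threshold. Kdr, the main signaling receptor of Vegfa, averaged 311 in the 4 matched primary tumors and 305 in the metastases (−0.07, adjusted p = 0.911 in limma). Its level was 474 and 421 in the metastases of mouse 4, the 2 highest metastases in Nrp1. In those of mouse 1 it was 299, 277 and 234. The summed level of the 5 receptors did not follow Nrp1 throughout. It was 926 and 880.5 in the metastases of mouse 4, but also 893 in the heart metastasis of mouse 3, with an Nrp1 of only 112. Flt1 averaged 189 and 180 (−0.11, adjusted p = 0.832), and Tek, the receptor of the angiopoietins, 156 and 145 (−0.11, adjusted p = 0.859).

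Among the semaphorins and plexins that share the neuropilins, 9 of 12 were measured, of which 3 were higher and 6 lower, with a median of −0.22. None passed the adjusted threshold, while 3 of the 9 had an unadjusted p under 0.01 and were lower in 9 of 9 metastases (3.98% and 3.6% of all probe sets). Plxna2, a plexin that signals for semaphorins bound to neuropilin, averaged 271 in the matched primary tumors and 173 in the metastases (−0.52, adjusted p = 0.154 in limma), and with all primary tumors its difference was −0.54 (adjusted p = 0.248). Its relative Plxna1 averaged 58.1 and 39.1 (−0.62, adjusted p = 0.219), but the difference was −0.20 with all primary tumors (adjusted p = 0.817). Sema3c, a secreted ligand of both neuropilins, averaged 305 and 204 (−0.61, adjusted p = 0.225), with −0.36 with all primary tumors (adjusted p = 0.525).

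The genes whose log2 intensity followed each member most closely were taken from about 15430 probe sets that were not dim, with Pearson's r over the 16 tumors as a description. Tumors of 1 mouse share an animal and cell content, which raises such values. Nrp1 was followed most closely by Elovl1 (r = 0.909), which elongates fatty acids, Uhrf1bp1l (0.907) and Tmem42 (0.902). Vegfa was followed by Fads3 (0.867), Cela1 (0.853) and Cox7a2l (0.85). For Vegfb these were Stx4a (0.851), Efnb3 (0.836) and Nfat5 (0.833).

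For Nrp2 the closest were Lrrc61 (0.864), Aplp1 (0.814) and Ighmbp2 (0.789), for Vegfd Ncl (0.822), Dbi (0.799) and Gadd45b (0.791), and for the dim Vegfc Cfp (0.913), Prl (0.910) and Prickle1 (0.905). Among the pairs of the 6 members that were not dim in all tumors, r over the 16 tumors lay between −0.514 for Vegfb and Nrp1 and 0.497 for Vegfb and Vegfc.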

How the data were processed

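RNA from 7 primary lung tumors and 9 metastases was hybridized by the authors to Affymetrix Mouse 430A arrays, 1 per tumor. The deposited intensity values are linear and were modelled by the authors in dChip from perfect match minus mismatch signals, with invariant set normalization. After 64 controls were left out, 22626 probe sets were tested; by the platform annotation 20380 have a single gene symbol, 691 several and 1555 none. Array medians lay between 75.0 and 85.5, and the number of arrays limits the precision.

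Intensities were floored at 1 (3.71% of values at or under it) and moved to the log2 scale. In limma 3.58.1 under R 4.3.3, the matched comparison (13 tumors) had the mouse as a fixed block and the comparison of all 16 tumors had it as a random block (consensus correlation 0.238). Metastases of 1 mouse entered as separate tumors, although only 4 mice gave any. Further fits compared 3 sites, 3 mice, and primary tumors of mice 5 to 7 with mice 1 to 4. Benjamini-Hochberg adjustment covered all probe sets. The pairing comes from the labels, which name the mouse of each tumor and which could be checked by markers only for sex and some sites. The deviations of a metastasis had correlations of −0.00 to 0.40 with those of its own primary tumor, the highest of the 4 for 6 of 9. The own primary tumor was not the highest for the body wall and inguinal metastases of mouse 1 and the liver metastasis of mouse 2. Without the block 43 probe sets were called in the matched comparison, and with it 80.

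Genes were represented by their probe set of highest mean. All member probe sets are described, list genes at an unadjusted p under 0.01 (at most 6 per list) are named, and so are the 3 closest genes per member. Receptors, Pecam1, Cdh5, Pdpn, Lyve1, Prox1, Pdgfra, Csf1r, Emr1 and the genes that check the labels were named in addition after their values were seen. Members, lists and settings were chosen with earlier results of these data known. Alternatives were floors at the 10th (5.54) and 25th (24.3) percentiles, a filter on dim probe sets, quantile normalization, median centring, averaging the ratios within each mouse, a robust prior with a variance trend, the methods' paired test, and each tumor or mouse left out. The scripts were tested on simulated data.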

Additional observations from a re-analysis of the deposited data

Results flagged for a closer look

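Of 28 groups of tumors examined for a value far from the rest, 2 held one, where chance gives about 1 in 20. On the Vegfd probe set 1449528_at the lymph node metastasis of mouse 3 stood at 58.34, apart from the other 8 metastases, by a gap of 0.532 of their whole range on the log2 scale. On the Angpt1 probe set 1421441_at the primary tumor of mouse 6 stood at 6.732, apart from the other 6 by a gap of 0.878 of the log2 range, in a gene under the 25th percentile in every tumor.

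For 2 members both liver metastases moved one way from their primary tumors and both lymph node metastases the other way. The mean log2 ratio in liver minus that in lymph node was −1.44 for Nrp1 (1448943_at) and −0.795 for Vegfd (1438953_at). This held for 5 of the 14 member probe sets, the 3 of Nrp1 and 2 of Vegfd, and for 15.2% of all probe sets. On the third Vegfd probe set, 1449528_at, the log2 ratios were 0.05 and 0.45 in liver and 0.80 and −0.16 in lymph node. The difference of these ratios between the 2 sites was not tested by itself. Liver metastases came from mice 1 and 2 and lymph node metastases from mice 3 and 4, so site and mouse cannot be told apart here.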

How the results depend on the processing

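Member probe sets past the adjusted threshold numbered 0 under all 21 alternatives of the matched comparison, all 14 of the comparison with all primary tumors, all 10 of the site comparison and all 9 of the comparison between primary tumors. The matched difference kept its sign for Vegfa, Vegfb, Vegfc, Nrp1 and Nrp2 in all 21, but its size rested on single mice. Vegfa went from −0.359 to −0.000766 without mouse 2, Nrp1 from −0.475 to −0.241 and Nrp2 from −0.114 to −0.00129 without mouse 1, Vegfc from 0.168 to 0.0357 without mouse 3, and Vegfb from 0.259 to 0.165 without mouse 2. Vegfd turned to −0.0104 with 1 mean ratio per mouse and ranged from −0.0700 to 0.117 with tumors or mice left out. In the comparison with all primary tumors, leaving out tumors gave −0.0472 to 0.0532 for Vegfd and −0.0946 to 0.00607 for Nrp2. Between primary tumors, leaving out tumors gave −0.287 to 0.0746 for Vegfb.

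Counts over all probe sets moved more. The matched count of 80 became 217 with dim probe sets left out, 224 with a variance trend and robust prior, 43 with no replicate block, 0 with 1 mean ratio per mouse and 884 with the methods' paired test, and 2 to 72 with tumors or mice left out. The count of 280 with all primary tumors became 443 with dim probe sets left out, 156 with no replicate block and 113 to 332 with tumors left out. The block changed no call of a member. The site count of 9 became 0 on log2 ratios, 14 with quantile normalization, 15 with the floor at the 25th percentile and 0 to 17 with tumors left out. Between primary tumors 231 became 371 with that floor and 0 to 42 with tumors left out; quantile normalization moved the share of lower calls from 67.1% to 52.5%. Between mice the 1169 calls became 229 to 955 with tumors left out, and the member count of 3 became 0 with the floor at the 25th percentile and 0 to 3 with tumors left out. Causes of these shifts were not tested. With 4 mice and dim signals for Vegfc, Pgf, Angpt1 and Angpt2, small changes were not detectable.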

Other observations

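Other genes of vessel growth showed no call past the adjusted threshold in the matched comparison. Of 12 angiogenesis inhibitors 10 were measured, 7 of them higher and 3 lower in the metastases (median log2 difference 0.35). Serpinf1, which encodes the antiangiogenic factor PEDF, averaged 139 in the 4 matched primary tumors and 319 in the metastases and was higher in 9 of 9 (0.95, SE 0.281, adjusted p = 0.219 in limma). Of 17 other angiogenic growth factors and peptides 16 were measured, with 5 higher, 11 lower and a median of −0.04. Pdgfd, a platelet-derived growth factor, averaged 33.3 and 22.3 and was lower in 9 of 9 (−0.57, adjusted p = 0.198). It was under the 25th percentile in 9 of 16 tumors, and with all primary tumors the limma difference was −0.19 (adjusted p = 0.876). Of 7 oxygen sensing factors 6 were measured, with 1 higher, 5 lower and a median of −0.09, and none had an unadjusted p under 0.01.

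Among the marker lists, the 6 fibroblast genes had 5 higher and a median of 0.93, with Col3a1, a fibrillar collagen, at 1029 in the matched primary tumors and 2659 in the metastases (1.08, adjusted p = 0.197 in limma). The 5 epithelial genes were all lower, with a median of −0.72, and Epcam averaged 1065 and 257 (−2.38, adjusted p = 0.131). The fibroblast gene that was lower was Pdgfra, in 8 of 9 metastases (−0.69, adjusted p = 0.260 in limma). Of the 7 macrophage genes 2 were higher and 5 lower, with a median of −0.18. Itgax (184 and 109, −0.69, adjusted p = 0.119) and Cd68 (222 and 143, −0.80, adjusted p = 0.192) were lower in 9 of 9. The 2 higher ones, Csf1r (678 and 1110, 0.46, adjusted p = 0.583) and Emr1 (293 and 336.5, 0.16, adjusted p = 0.678), were each higher in 7 of 9. Among the alveolar type 2 genes, the phosphate transporter Slc34a2 (−2.27, adjusted p = 0.0582), the surfactant proteins Sftpd (−2.41, adjusted p = 0.0725) and Sftpa1 (−2.37, adjusted p = 0.217) and the mucin Muc1 (−2.76, adjusted p = 0.0822) had an unadjusted p under 0.01. None of the genes in these 4 lists passed the adjusted threshold in the matched comparison. With all primary tumors Epcam (−2.28, adjusted p = 0.0142), Sftpd (−2.63, adjusted p = 0.00726), Slc34a2 (−2.41, adjusted p = 0.0237), Muc1 (−2.43, adjusted p = 0.0296) and Itgax (−0.72, adjusted p = 0.0104) passed in limma, as did Pdpn of the lymphatic endothelium list (−1.15, adjusted p = 0.0498). The other measured genes of that list did not pass in the same limma fit: Lyve1 (−0.67, adjusted p = 0.231), Prox1 (−0.17, adjusted p = 0.849) and Flt4 (0.05, adjusted p = 0.979).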
